A study of Mus musculus with 6 samples.

Results

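Pro-B cells with surrogate light chain are early B-lineage cells, and 455 of them were found among 32953 CD45-positive cells from arthritic mouse joints. They were selected on measured values: at least 3 unique molecular identifiers (UMIs, tags that mark single RNA molecules) of Vpreb1, Igll1 and Dntt together, at least 2 of Cd79a, and fewer than 2 of Mki67 and Top2a together. The 455 cells made up 1.38% of all cells (Wilson 95% interval 1.26 to 1.51%) and 7.56% (6.92 to 8.26%) of the 6015 cells with at least 2 Cd79a UMIs. These intervals, like all others here, cover counting error only.

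The study asked how the peptide PEPITEM changes the leukocytes of the joint in antigen-induced arthritis (AIA). Male C57BL/6 mice, 8 weeks old when bought and with no genetic change named, were immunized under the skin with 10 μg methylated bovine serum albumin (mBSA) in complete Freund's adjuvant and given 100 μg mBSA into the knee on day 21. The control samples (n = 2) came from such mice given PBS as vehicle, and the treated samples (n = 4) from such mice given 300 μg PEPITEM, and all were taken on day 3 after the challenge. Every animal was therefore immunized and challenged, and no sample from unchallenged joints was analysed here. CD45-positive cells were sorted from digested joints, so other cells of the joint were largely left out. The paper calls the cells synovial but describes digestion of isolated joints. Whether marrow cells were among those sorted was not tested. The counts of all samples lie in 1 table whose barcodes carry a library number from 1 to 6. No source used here links these numbers to PBS or PEPITEM, so treatment is not known for any cell here. No group comparison was made, and no test or SD was computed over the libraries.

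In the marrow, a pro-B cell joins the gene segments of its immunoglobulin heavy chain with the recombinase encoded by Rag1 and Rag2, while terminal deoxynucleotidyl transferase, the product of Dntt, adds bases at the joints. The first heavy chain is displayed with the surrogate light chain, the proteins of Vpreb1 (or Vpreb2) and Igll1, and with the signaling chains Cd79a and Cd79b, as the pre-B cell receptor. A signal from this receptor drives a burst of division, after which the small pre-B cell shuts off surrogate light chain and Dntt and recombines its kappa and lambda light chain genes.

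Vpreb1 (chr16:16868403-16870843, minus strand) and Igll1 (chr16:16860671-16863985, minus strand) lie 4417 bases apart in GRCm38, the assembly named mm10 in the submitters' processing notes. Vpreb2 (chr16:17980428-17981273, plus strand) lies 1109584 bases from Vpreb1, and Dntt is on another chromosome (chr19:41029275-41059525, plus strand). All 4 are protein-coding genes. The stretches just before the RefSeq start sites of the 3 selected genes, and the matching stretch of Vpreb2, are shown because these genes set the cells apart and because Vpreb1 and Vpreb2 are near copies. They are RefSeq sequences of GRCm38, written 5′ to 3′ on the strand of the gene, and capitals mark the E box CAGGTG or its reverse complement CACCTG, letters that the E proteins encoded by Tcf3 and Tcf12 are known to bind. For Vpreb1 the gene span given above is that of GENCODE, which includes transcripts that begin further upstream, so the window before its RefSeq start lies inside that span. The windows are chr16:16869256-16869375 for Vpreb1, chr16:17980315-17980414 for Vpreb2, chr16:16863986-16864105 for Igll1 and chr19:41029155-41029274 for Dntt.
Vpreb1: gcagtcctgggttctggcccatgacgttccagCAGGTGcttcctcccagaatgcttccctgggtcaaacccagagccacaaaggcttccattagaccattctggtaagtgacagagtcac
Vpreb2: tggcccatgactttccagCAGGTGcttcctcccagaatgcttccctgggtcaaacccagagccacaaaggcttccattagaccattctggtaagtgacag
Igll1: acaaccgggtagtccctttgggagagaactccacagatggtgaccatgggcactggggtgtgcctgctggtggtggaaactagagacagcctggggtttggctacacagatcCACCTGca
Dntt: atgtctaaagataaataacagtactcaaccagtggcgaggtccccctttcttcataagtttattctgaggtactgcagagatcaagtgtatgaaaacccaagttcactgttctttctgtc

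The E box was searched on both strands in the 250 bases before the start of 12 genes named below, all of which had an entry. It was found in 6 of them, Vpreb1, Vpreb2, Igll1, Cd79a, Rag1 and Blnk, and in 17.2% of all 32851 promoter entries. The 12 genes were chosen with results of these data known. The boxes of Vpreb1 and Vpreb2 lie in nearly the same stretch and are not independent. No enrichment is read from 6 of 12 beside 17.2%. The letters CCCNNGGG, the core of the motif of the factor encoded by Ebf1, were found before Igll1 and Erg among the same 12 genes and in 11.8% of all entries. A match is a description of the letters and not a bound site. The stretch shown for Vpreb2 shared 99 of its 100 bases with that of Vpreb1, and the coding transcripts of the pair shared 739 of 759 aligned bases (97.4%). In the last 300 bases of the transcripts, where 3′ libraries are read, identity was 96.0%, so the split of reads between Vpreb1 and Vpreb2 is uncertain.

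The members were unevenly spread over the libraries. The lowest library held 20 of them, the median library 68.5 and the highest 160, out of 2919 to 9345 cells and 47273569 to 123367661 UMIs per library. As a share of all cells, pro-B cells made up 0.685% of the lowest library (0.444 to 1.06%), 0.984% of the median library and 2.75% (2.36 to 3.21%) of the highest, which was library 2. The interval of library 2 did not meet that of any other library. Among cells with at least 2 Cd79a UMIs the order was different, with 3.74% in library 3, 4.21% in library 1, 7.53% in library 2 and 10.6% (8.90 to 12.6%) in library 6. Library 2 was therefore high in all B-lineage cells and near the middle in the pro-B share of them, whereas libraries 1 and 3 were low on both scales. Across libraries 138 barcodes occurred more than once, in 0.838% of cells. None occurred in more than 1 library among the pro-B cells, and 2 members had a barcode also seen outside the members.

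**Figure D1:**
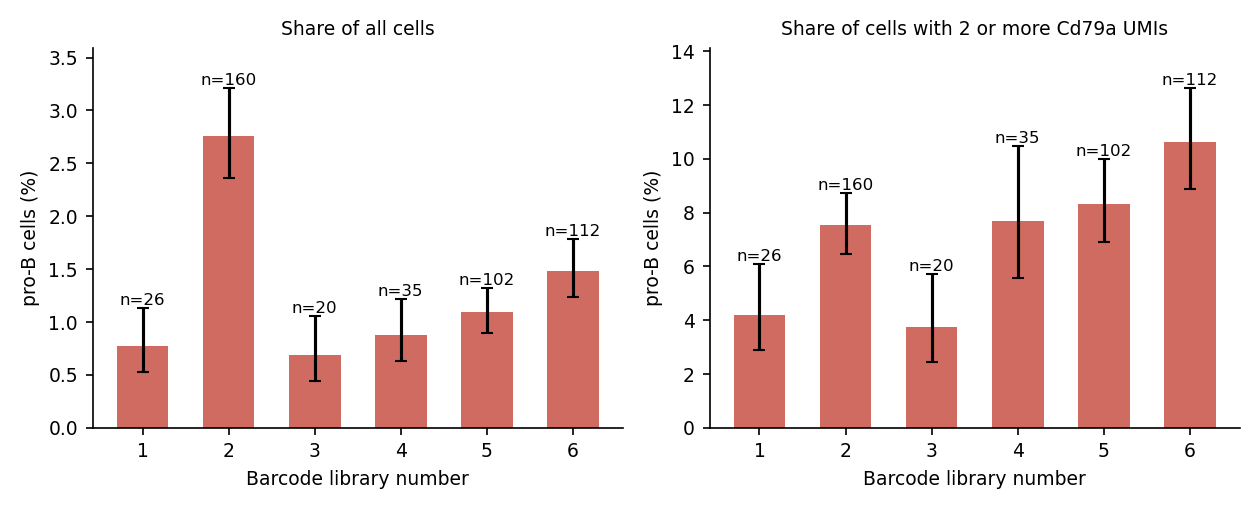
Pro-B cells in each of the 6 libraries as a percent of all cells (left) and of cells with at least 2 Cd79a UMIs (right); bars are shares, whiskers Wilson 95% intervals and n the number of pro-B cells. Library 2 stands highest on the left at 2.75% and library 6 highest on the right at 10.6%.

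Of the 455 members, 368 (80.9%) had UMIs of Vpreb1, Igll1 and Dntt, 57 (12.5%) of Vpreb1 and Igll1 without Dntt, and 11 (2.42%) of Dntt alone. The median member held 19 UMIs of Vpreb1, 11 of Igll1, 7 of Dntt and 12 of Cd79a, and the median of the 3 selected genes together was 39 against a threshold of 3. Neither Mki67 nor Top2a was counted in 412 members, and 43 had 1 such UMI. These values chose the cells and support nothing further. Just inside the threshold on the sum, 18 cells with 3 UMIs had 555 counts per 1000000 UMIs (CPM) of Erg and 860.2 CPM of Lef1. Just outside it, 19 cells with 2 UMIs had 82.8 CPM of Erg and 232 CPM of Lef1. Levels were closer across the threshold on Mki67 and Top2a. The 43 cells with 1 UMI inside it had 989 CPM of Erg and 2321 CPM of Lef1. The 14 cells with 2 UMIs outside it had 874 and 2057 CPM. At the Cd79a threshold there were 7 cells with 2 UMIs inside and 12 with 1 UMI outside. A further 285 cells passed the sum without any Cd79a UMI and carried 1249 CPM of Siglech, a plasmacytoid dendritic cell gene, against 77.7 CPM of Ebf1.

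The members held 3739035 UMIs, with a median of 6897 per cell (1741 to 58764) and a median of 2679 genes. They were set beside 3 other B-lineage classes defined by UMI counts. Cycling surrogate light chain cells passed the same thresholds but had at least 2 UMIs of Mki67 and Top2a (349 cells, median 19173 UMIs). Small pre-B cells had fewer than 3 UMIs of the 3 selected genes, at least 1 of Rag1 and fewer than 2 of Ms4a1 (1243 cells, median 5067 UMIs). Ms4a1 B cells had at least 2 UMIs of Ms4a1, the gene of the mature marker CD20 (2252 cells, median 5811 UMIs). Values below are UMIs summed over a class per 1000000 UMIs of that class. A gene was called higher or lower where the classes differed at least 2-fold after adding 1 CPM and in the same direction in every library with at least 20 cells of both classes. This is a rule of size and repetition, not a test. All 6 libraries could be read against small pre-B and Ms4a1 B cells, and libraries 2, 5 and 6 against cycling cells.

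The class was checked against markers that the selection did not use. Vpreb3, whose product associates with newly made immunoglobulin chains, had a UMI in 98.2% of pro-B cells (97.1% after each cell was thinned to 3000 UMIs). In cells with at least 3 Cd3 UMIs and no Cd79a, a class added after the data were seen as one that should lack B-lineage genes, the share was 0.646% (0.247% thinned) at a median of 10091 UMIs. Cells with Cd79a were left out of that class, so its low share is not independent of its definition. Vpreb3 does not separate pro-B from small pre-B cells, of which 98.8% had a UMI. Kit, the stem cell factor receptor of early pro-B cells, had a UMI in 24.4% of pro-B cells (12.7% thinned), against 1.21% of small pre-B cells (0.583% thinned) and 5.65% of the Cd3 cells (1.56% thinned). Il7r, the interleukin-7 receptor on which early B cells depend in the mouse, had a UMI in 80.7% of pro-B cells (59.2% thinned), 75.9% of small pre-B cells (65.8% thinned) and 58.9% of the Cd3 cells (40.0% thinned), so it does not mark the class. Kit was thus counted in a minority of the members, and it was nearly missing from members without Dntt, described further on.

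Of the pre-B receptor genes, those of the surrogate light chain were higher in pro-B than in small pre-B cells, and Ighm and Syk were lower. The selected genes were high by choice, at 2231 to 2856 CPM of Vpreb1, 1319.8 to 1585 CPM of Igll1 and 966 to 1308 CPM of Dntt between libraries. Vpreb2, which the rule does not name, was at 168 CPM in the lowest library of pro-B cells, 199 in the median and 333 in the highest, and no UMI of it was counted in small pre-B or Ms4a1 B cells of any library. Against a floor of 3 counts over the class, it was at least 500-fold higher than in small pre-B cells and at least 1125-fold higher than in Ms4a1 B cells. The near identity with Vpreb1, whose own level was 2424 CPM in pro-B cells, means that this gene is not independent of the selection.
Vpreb3 was at 2809, 3171 and 3307 CPM in the lowest, median and highest libraries of pro-B cells, and at 1639, 2323 and 2410 CPM in small pre-B cells. The ranges did not overlap, but the 1.37-fold difference was below the size set for a call. Ighm, the mu heavy chain gene, was at 982, 1307 and 2067 CPM in pro-B cells and at 3450, 3713 and 4984 CPM in small pre-B cells. Every library of pro-B cells lay below every library of small pre-B cells. Syk, the kinase that signals below the receptor, was at 559.5 CPM against 1561 CPM. Of the 9 listed receptor and signaling genes that could be read against small pre-B cells, Vpreb2 was called higher, Ighm and Syk lower, and 6 neither. Over all 8792 genes read in this comparison, 7.79% were called higher and 3.72% lower in pro-B cells. Relative to cycling cells, Vpreb2, Vpreb3 and Blnk were higher and Cd24a lower among 9 genes. Relative to Ms4a1 B cells, Vpreb2, Vpreb3 and Blnk were higher and Ighm lower among 9. Over all genes 15.6% were higher and 11.1% lower than in cycling cells, and 9.95% and 7.13% than in Ms4a1 B cells.

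**Figure D2:**
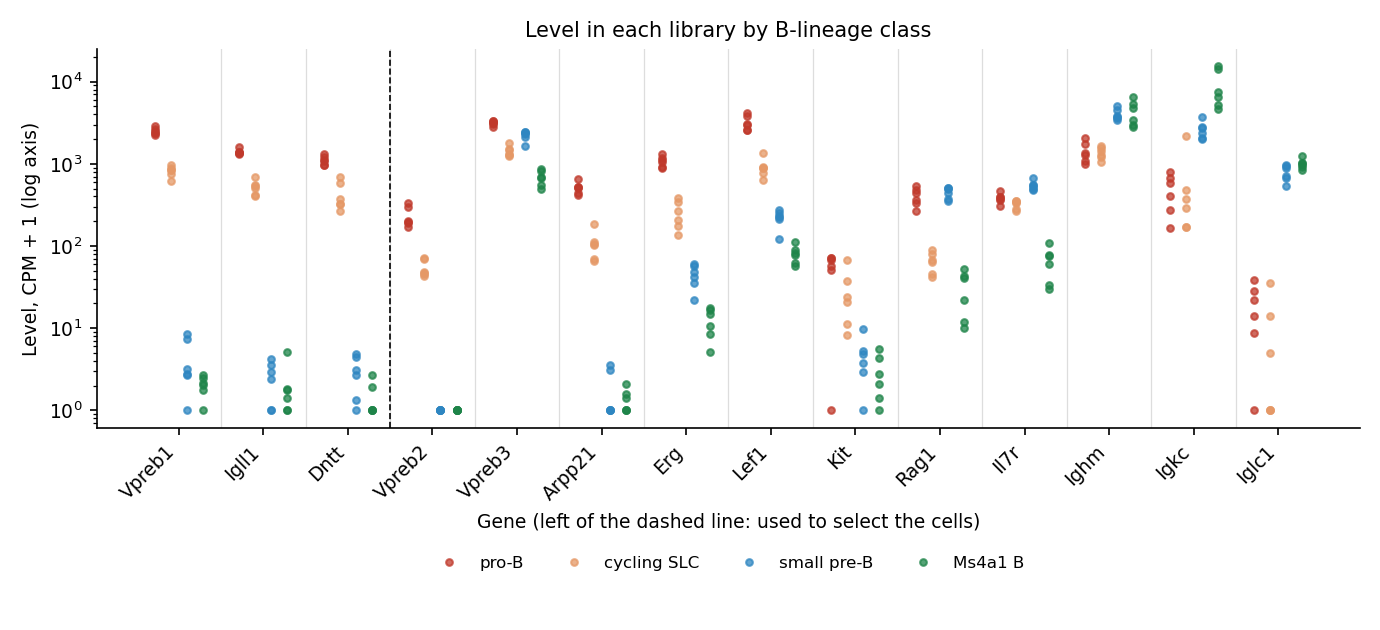
Levels of 14 genes in the 4 B-lineage classes, as CPM plus 1 on a log axis, with 1 point per library; SLC stands for surrogate light chain, and the 3 genes left of the dashed line were used to select the cells. Points of pro-B cells lie above those of small pre-B cells for Vpreb2, Arpp21, Erg and Lef1 and below them for Ighm, Igkc and Iglc1.

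Of 9 recombination genes read against small pre-B cells, Polm was lower and none was higher, where 3.72% of all genes were lower and 7.79% higher. Rag1 was at 269, 399 and 542 CPM in the lowest, median and highest libraries of pro-B cells. Small pre-B cells, which were required to have a Rag1 UMI, had 347, 465 and 511 CPM, so the ranges overlapped and this pair of levels is a description only. Rag2, which no rule used, was at 64.3, 88.9 and 119 CPM in the lowest, median and highest libraries of pro-B cells and at 31.5, 49.3 and 58.4 CPM in small pre-B cells. All 6 libraries of pro-B cells lay above those of small pre-B cells, by 0.81 on the log2 scale of the pooled level, which was below the size for a call. Cycling cells had 32.1 CPM of Rag2 and Ms4a1 B cells 2.27 CPM, against 82.9 CPM in pro-B cells. Of 10 recombination genes read against cycling cells, Rag1, Rag2, Xrcc6 (the Ku70 end-binding protein) and Dclre1c (the Artemis nuclease that opens hairpins) were called higher and none lower. In that comparison 15.6% of all 9083 genes were called higher and 11.1% lower.
Against Ms4a1 B cells, Rag1, Rag2, Xrcc6 and Lig4 (the ligase that seals the ends) were higher among 10 genes, where 9.95% of all 8952 genes were. Polm, a polymerase that fills ends during light chain joining, was lower, at 21.7 CPM against 55.2 CPM in Ms4a1 B cells and 169.8 CPM in small pre-B cells. Lower calls made up 7.13% of all genes against Ms4a1 B cells.

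Among 21 transcription factors of B-cell fate, Erg and Lef1 stood far apart in every comparison. Erg, an ETS factor, was at 881, 1081 and 1328 CPM in the lowest, median and highest libraries of pro-B cells, and at 21.1, 44.2 and 60.0 CPM in small pre-B cells. Lef1, a factor of the Wnt pathway that early B cells express, was at 2570, 3009 and 4122 CPM in pro-B cells and at 119, 226 and 275 CPM in small pre-B cells. No library of small pre-B cells reached the lowest library of pro-B cells for either gene. The difference on the log2 scale was 4.34 for Erg and 3.67 for Lef1 against small pre-B cells, 2.12 and 1.69 against cycling cells, and 6.23 and 5.24 against Ms4a1 B cells.
The factors that specify the lineage did not separate pro-B from small pre-B cells by the size set. Ebf1 took 13889.7 CPM in pro-B and 12314 CPM in small pre-B cells, Pax5 999 and 1367 CPM, and Tcf3 350 and 374 CPM. Libraries overlapped for Ebf1 and Tcf3. For Pax5 every library of pro-B cells (818 to 1138 CPM) lay below every library of small pre-B cells (1171 to 1430 CPM). Against Ms4a1 B cells, Ebf1, Tcf3, Sox4, Myb and Id3 joined Erg and Lef1 among the 7 factors called higher, and Ikzf3, Spib and Id2 were lower among the 21. The median log2 ratio of the list was 0.09, beside 0.10 over all genes. Myb, needed for early lymphoid growth, was at 563 CPM in pro-B and 91.4 CPM in Ms4a1 B cells.
Factors lower in pro-B than in small pre-B cells were Ikzf3, Spib, Irf4, Bach2, Pou2af1 and Id2, 6 of 21. Ikzf3, encoding Aiolos, was at 0, 168 and 244 CPM in the lowest, median and highest libraries of pro-B cells and at 675, 989 and 1083 CPM in small pre-B cells. Irf4, which promotes light chain recombination, was at 140 CPM against 407 CPM, and Bach2 at 3477 CPM against 10751 CPM. Besides Erg and Lef1, Bcl11a (260.5 against 80.6 CPM) and Bcl6 (120.1 against 56.6 CPM) were higher, which gives 4 of 21. Over all genes, 3.72% were lower and 7.79% higher than in small pre-B cells, and 9.95% were higher and 7.13% lower than in Ms4a1 B cells. Relative to cycling cells, Ebf1, Foxo1, Lef1, Sox4, Erg and Bcl6 were higher, 6 of 21, and none was lower. Over all genes 15.6% were higher and 11.1% lower than in cycling cells. The median log2 ratio of the list was -0.45 against small pre-B cells, beside 0.06 over all genes, and 0.38 against cycling cells, beside 0.17.

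**Figure D3:**
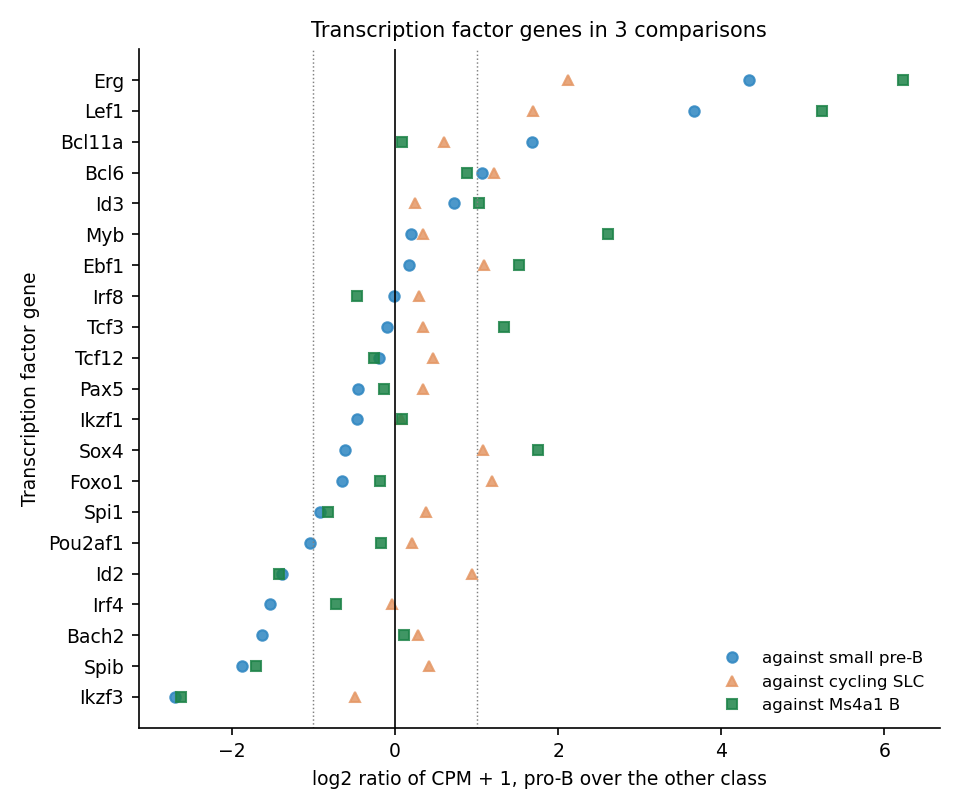
Log2 ratios of CPM plus 1 for 21 transcription factor genes, pro-B cells over small pre-B, cycling surrogate light chain (SLC) and Ms4a1 B cells; dotted lines mark 2-fold. Erg and Lef1 lie right of 2-fold in all 3 comparisons, and Ikzf3 and Spib lie left of it against small pre-B and Ms4a1 B cells.

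Light chain genes were lower in pro-B cells than in small pre-B and Ms4a1 B cells. All 6 constant genes listed (Ighm, Ighd, Igkc, Iglc1, Iglc2 and Iglc3) were called lower than in small pre-B cells and lower than in Ms4a1 B cells, with no overlap between libraries, where 3.72% and 7.13% of all genes were lower. Igkc was at 163, 496 and 789 CPM in the lowest, median and highest libraries of pro-B cells and at 1993, 2542 and 3716 CPM in small pre-B cells. The pooled level of Iglc1 was 24.1 CPM against 830 CPM. Against cycling cells, 1 of the 6 was called, Iglc3, which was higher in pro-B cells at 32.4 CPM against 6.87 CPM, where 15.6% of all genes were higher. Igkc was not spread evenly over the members, since 165 of 455 cells had a UMI of it and 82 had at least 5. Of the Cd3 cells, which should lack it, 0.808% had a UMI of Igkc.

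Receptors for growth factors and niche signals differed gene by gene. Il7r was at 302, 383 and 462 CPM in the lowest, median and highest libraries of pro-B cells, 479, 534 and 675 CPM in small pre-B cells and 28.9, 66.2 and 108 CPM in Ms4a1 B cells. The class thus lay below small pre-B cells without overlap, by less than 2-fold, and above Ms4a1 B cells by 2.57 on the log2 scale. Kit was at 56.7 CPM, against 4.00 CPM in small pre-B cells, and in library 3 it was at 0 in pro-B cells, so no call was made. Flt3, the receptor of lymphoid progenitors, varied from 6.26 to 143 CPM between libraries of pro-B cells and was called higher than in small pre-B cells, at 42.5 against 17.1 CPM. Few members had a UMI of Flt3, 10.3% of those with a Dntt UMI and 4.41% of those without. Flt3 was not called against cycling cells, with a log2 ratio of 0.18. Cxcr5, a chemokine receptor of B cells, was also higher than in small pre-B cells, at 30.0 against 10.6 CPM. Itga4, the alpha4 integrin chain, was called higher in all 3 comparisons, at 642 CPM against 230 CPM in small pre-B cells, 305 CPM in cycling cells and 247 CPM in Ms4a1 B cells. Cxcr4, the receptor for the marrow chemokine CXCL12, was lower than in small pre-B cells, at 164 against 349 CPM, and so was Ccr7, at 30.8 against 180 CPM. Of 15 receptor genes, 3 were higher and 2 lower than in small pre-B cells, 6 and 1 against cycling cells, and 3 and 4 against Ms4a1 B cells. Over all genes 7.79% were higher and 3.72% lower in the first comparison, 15.6% and 11.1% in the second, and 9.95% and 7.13% in the last.

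The genes with the largest ratios over small pre-B cells were Arpp21, Vpreb2, Mmrn1, Eng, 2010300C02Rik, Pcp4l1, Tnfsf10, Dlg2, Auts2 and A630023P12Rik. Arpp21, encoding a cAMP-regulated phosphoprotein, was at 411, 510 and 651 CPM in the lowest, median and highest libraries of pro-B cells and at 2.61 CPM or less in every library of small pre-B cells. The 6 UMIs in small pre-B cells against 1778 in pro-B cells gave a ratio of 575 (exact 95% interval 264 to 1569). Eng, the TGF-beta coreceptor endoglin, was at 194, 259 and 344 CPM in pro-B cells, where small pre-B cells had at most 6.28 CPM. Mmrn1, a multimerin best known from platelets and endothelium, was at 125 CPM, with 2 UMIs in small pre-B cells and a ratio of 454 (125 to 3760). Tnfsf10, the death ligand TRAIL, was at 113 against 1.52 CPM. For these 10 genes no library of small pre-B cells reached the lowest library of pro-B cells. Cycling cells held some of them too, with Arpp21 at 65.6 to 186 CPM between libraries. Auts2 was at 64.8 to 356 CPM in cycling cells and 194 to 454 CPM in pro-B cells. Ranges of these 2 classes overlapped for Auts2 and Dlg2 and not for the rest of the 10.
The genes lowest relative to small pre-B cells were Reln, Iglc1, Iglc2, Iglc3, Col5a3, Col25a1, Gm43388, Cd2, Agbl1 and Dtx1. Reln, encoding the secreted glycoprotein reelin, was at 0, 3.07 and 5.11 CPM in the lowest, median and highest libraries of pro-B cells and at 251, 379.6 and 473 CPM in small pre-B cells. Cd2, an adhesion receptor, was at 19.5 against 314 CPM. In no library did pro-B cells reach the level of any library of small pre-B cells for either gene.

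Against Ms4a1 B cells, Arpp21, Vpreb2, Pcp4l1, Mmrn1 and Eng were again among the 10 genes with the largest ratios, with Erg, Gm30948, Drc7, Dkk3 and Adgrl4. Dkk3, of the Dickkopf family, was at 68.2 CPM and had no UMI in Ms4a1 B cells, which puts it at least 371-fold higher. These comparisons share the pro-B cells, so the recurrence of a gene is not independent. The 10 lowest genes were Iglc2, Btla, Fcer2a, Iglc1, Fcmr, H2-DMb2, Gm43388, Bank1, Gm43603 and Scd1. Fcer2a, the CD23 receptor of mature B cells, was at 1.87 against 119 CPM, Btla, an inhibitory receptor, at 6.15 against 303 CPM, and Bank1, a B-cell receptor adaptor, at 65.3 against 1573 CPM.

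Pro-B and cycling cells were separated by the cell cycle genes of the rule, so their cell cycle genes differ by construction. The 10 lowest genes were Ccna2, 2810417H13Rik, Hmmr, Hist1h3c, Kif4, Neil3, Esco2, Ube2c, Sgol2a and Nusap1. Ccna2, encoding cyclin A2, had no UMI in pro-B cells and 167 CPM in cycling cells. Of 16 replication genes 12 were lower and 1, Cdkn1b, an inhibitor of cyclin-dependent kinases, was higher, at 199 against 85.1 CPM. All 7 mitosis genes read were lower. Over all genes 11.1% were lower and 15.6% higher in this comparison. Neither statement is independent of the selection. The summed level of 10 replication genes in pro-B cells was 243 CPM, against 2225 CPM in cycling, 141 CPM in small pre-B and 147 CPM in Ms4a1 B cells. After thinning, 5.58% of pro-B cells had 3 or more UMIs of these genes, against 82.8% of cycling and 2.17% of small pre-B cells. Against small pre-B cells Cdk6 (487 against 95.2 CPM), Ccnd2 (85.6 against 26.7 CPM) and Mcm6 (55.4 against 17.0 CPM) were higher among 13 genes and none was lower, where 7.79% of all genes were higher.
The genes with the largest ratios over cycling cells were Apoe, Gm32569, Parvb, Eya2, Pcdh9, RP23-477O13.1, A630023P12Rik, Kdm5b, Cacna1e and Cacna2d1. Apoe rested on cells that also held myeloid UMIs, since without the cells with 5 or more of these it fell from 165 to 2.96 CPM, below the minimum to be read. Kdm5b, a histone demethylase, was at 155, 177 and 214 CPM in the lowest, median and highest libraries of pro-B cells, against 15.6 CPM in cycling cells. Cycling cells had a median depth of 19173 UMIs against 6897 in pro-B cells, and the part of depth in these ratios was not tested.

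Among survival genes, differences of 2-fold or more stood beside genes that were not called. Of 7 survival genes, Bcl2l1, which encodes the protective protein BCL-XL, was lower than in small pre-B cells, at 74.4 against 276 CPM, and none was higher. Against Ms4a1 B cells, Bcl2 (19.5 against 108 CPM) and Bcl2a1b (6.69 against 72.4 CPM) were lower among 8 genes, and none was higher. Against cycling cells, Mcl1 (455 against 169.6 CPM) and Bcl2l11 (173 against 77.9 CPM), a protective and a death-promoting member of the same family, were higher among 7 genes and none was lower. Over all genes, 3.72% were lower than in small pre-B cells, 7.13% lower than in Ms4a1 B cells and 15.6% higher than in cycling cells.
The sequence of PEPITEM lies within the 14-3-3 protein that Ywhaz encodes, and adiponectin is the upstream signal in the pathway the study addressed. Ywhaz was at 301, 338 and 351 CPM in the lowest, median and highest libraries of pro-B cells, and pooled levels were 378 CPM in small pre-B and 408 CPM in Ms4a1 B cells. The adiponectin receptor genes Adipor1 and Adipor2 were at 71.4 and 126 CPM in pro-B cells, 67.4 and 89.3 CPM in small pre-B cells and 78.9 and 73.4 CPM in Ms4a1 B cells. None of 11 genes of this list was called against small pre-B cells, 1 was higher (Spns2) and 1 lower (Ywhah) against cycling cells, and 1 of 12 was lower (Sfn) against Ms4a1 B cells. Over all genes 7.79% were higher and 3.72% lower against small pre-B cells, and 15.6% and 11.1% against cycling cells. The shares against Ms4a1 B cells were 9.95% and 7.13%, so the counts of this list are near the background.

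The members fell into parts by Dntt, which was counted in 387 cells and not in 68. Members without Dntt held fewer UMIs (median 5340 against 7319), so shares of cells are given after thinning to 3000 UMIs, which kept 66 and 382 cells. Igkc had a UMI in 80.3% of members without Dntt and 19.4% of those with it, beside 84.2% of small pre-B cells. Ikzf3 had one in 59.1% and 9.42%, beside 81.1%, and Irf4 in 48.5% and 22.5%, beside 57.7%. The levels moved with the shares, at 2350.2 CPM (2208 to 2499) of Igkc without and 319.5 CPM with Dntt, and at 652 CPM (578 to 733) and 83.8 CPM of Ikzf3. Polm was at 99.1 CPM without and 11.5 CPM with Dntt, and Bach2 at 8224 and 2854 CPM. Genes of other lists differed between the parts as well, but not alike in the libraries. Cd74 was at 1661 CPM without and 429 CPM with Dntt (42.4% and 12.0% of cells after thinning), and H2-Aa at 728 and 142 CPM (12.1% and 8.90% of cells). In library 2 Cd74 was at 2754 and 503 CPM and H2-Aa at 1279 and 195 CPM, whereas in library 5 Cd74 was at 445 and 426 CPM and H2-Aa at 84.2 and 157 CPM. After thinning, UMIs of S100a8 lay in 1.52% of members without and 2.09% of those with Dntt, and of Ccr2 in 1.52% and 2.62%, so their pooled levels rest on a few cells. The part of these genes in the split was not tested.
Arpp21, Eng, Kit and Vpreb2 ran in the other direction, while Bcl11a was at 313 CPM without and 254 CPM with Dntt. For Bcl11a the libraries differed, with 205 and 254 CPM in library 2 and 397 and 265 CPM in library 5. Its share of cells after thinning was 43.9% without and 45.3% with Dntt. Arpp21 had a UMI in 7.58% of members without and 65.7% of those with Dntt, and Eng in 13.6% and 46.3%. Kit had one in 3.03% and 14.4%, and Vpreb2 in 10.6% and 40.3%. Levels of Arpp21 were 64.5 and 529.5 CPM. Erg, at 622 and 1093 CPM, and Lef1, at 1659 and 3275 CPM, differed less and stayed above the 50.4 and 241 CPM of small pre-B cells in both parts. Vpreb3, Ebf1 and Rag1 were close in both parts, at 2940.1 and 3099.5 CPM, 13260.4 and 13972 CPM, and 495 and 401 CPM. In library 2, which held 32 of the 68 cells, Igkc was at 2164 CPM without and 498 CPM with Dntt and Arpp21 at 54.3 and 527 CPM. In library 5, with 17 of them, Igkc was at 3356 and 201 CPM and Arpp21 at 36.1 and 463 CPM. For Igkc and Arpp21 the direction was the same in both libraries. A cell without a Dntt UMI can still hold its RNA, and Dntt was part of the selection, so these values describe how the members vary. For Kit and the light chain, the members without Dntt went against the name pro-B.

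**Figure D4:**
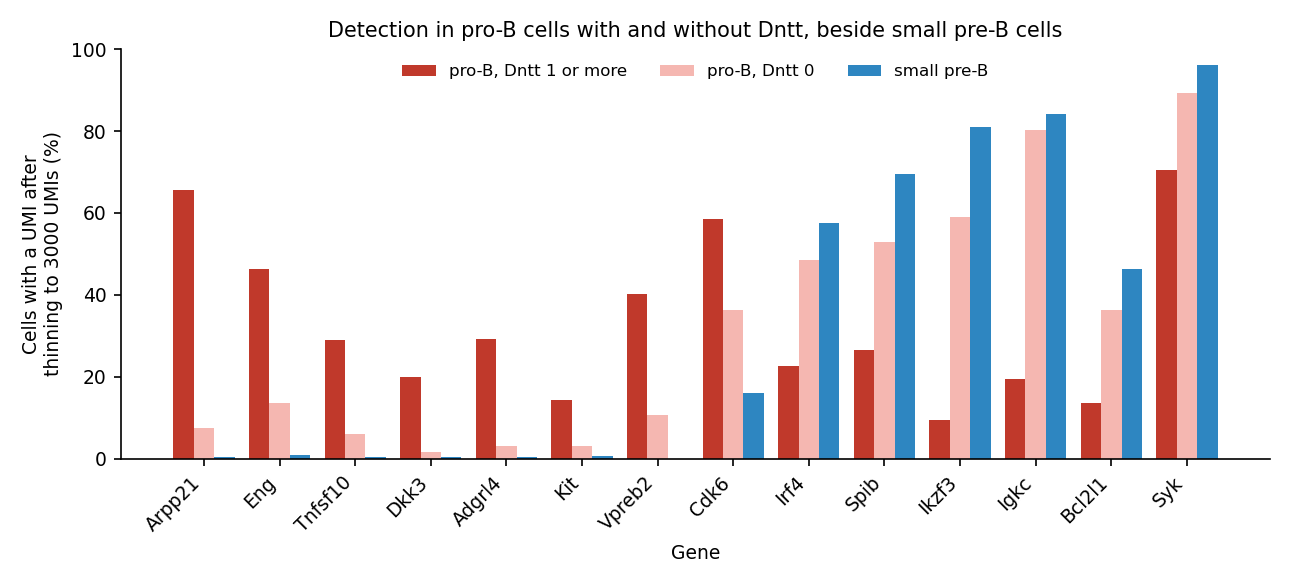
Percent of cells with a UMI of 14 genes after thinning to 3000 UMIs, in pro-B cells with at least 1 Dntt UMI, pro-B cells without Dntt, and small pre-B cells. For Igkc the bars stand at 19.4%, 80.3% and 84.2%, and for Arpp21 at 65.7%, 7.58% and 0.333%.

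Neutrophil, Lyz2 and Siglech UMIs were held by few members, whereas single genes of other lists, such as Cd37, Mzb1, Pecam1, F13a1, Car2 and Bst2, were counted in many. Neutrophil genes summed to 8007 CPM, all 9 of them were counted, and the library values ran from 2.99 to 24841 CPM with a median of 535 CPM. The most abundant was S100a8 at 3060.4 CPM, which fell to 1528 CPM without library 5. S100a9 was at 2950.5 CPM, and 1703 CPM without library 5. Nearly all of this lay in 17 cells (3.74%) with at least 5 UMIs of S100a8, S100a9 and Lyz2, which held 99.8% of those UMIs at a median of 20971 UMIs per cell. Without the 17 cells S100a8 was at 0.593 CPM, S100a9 at 5.93 CPM and Lyz2, a macrophage and neutrophil gene, at 10.7 CPM in place of 684 CPM. Apoe, the gene with the largest ratio over cycling cells, fell from 165 to 2.96 CPM without them. The macrophage list summed to 1059.9 CPM over 10 genes. One of them, F13a1, a coagulation factor subunit, had a UMI in 31.4% of members (17.2% thinned), against 5.23% of small pre-B cells and 8.24% of the Cd3 cells (4.91% thinned).
Of the 9 genes of the T cell list, Cd3d, Cd3e, Cd3g and Trac were at 0 and 5 had UMIs, with a sum of 19.5 CPM. Lat, an adaptor of T cell receptor signaling, gave 15.2 CPM of this, with a UMI in 10.3% of members (4.91% thinned), against 1.79 CPM in small pre-B cells and 161 CPM in the Cd3 cells. No UMI was counted of any of the 6 mast cell and basophil genes or of 5 of 6 fibroblast genes, the exception being Dcn at 0.267 CPM. The endothelial list summed to 373 CPM, of which Pecam1, also a leukocyte gene, gave 367 CPM. The plasma cell list summed to 902 CPM, of which Mzb1, also made by early B cells, gave 832 CPM, and Tnfrsf17 was at 0. Mature B genes summed to 1411 CPM, with Cd74 first at 572 CPM, and 34.3% of members held 5 or more UMIs of the list. Of the Cd74 UMIs 58.7% lay in 5 cells, but Cd37, a tetraspanin of B cells, was at 307 CPM with a UMI in 84.4% of members (55.1% thinned), against 285 CPM in small pre-B cells. Lists of NK, dendritic and erythroid cells and of stem and progenitor cells summed to 21.1, 39.6, 106 and 96.3 CPM, led by Klrb1c, Ccr7, Car2 and Meis1. Car2 had a UMI in 36.3% of members (20.1% thinned) and Meis1 in 26.8% (15.8% thinned), against 5.25% and 1.62% of the Cd3 cells (2.54% and 0.246% thinned).
The plasmacytoid dendritic list summed to 303 CPM, led by Bst2 at 119.6 CPM, with a UMI in 28.6% of members (13.6% thinned) and 51.0% of the Cd3 cells (23.0% thinned). Siglech had 158 UMIs, of which 98.1% lay in 5 cells. The 4 members with at least 5 Siglech UMIs, picked after their values were seen, had 1822 CPM of Siglech and 1907 CPM of Runx2. They had 2824 CPM of Ebf1, against 14141 CPM in the other 451 members, and 3 of the 4 were among the 11 members selected on Dntt alone. Of those 11 cells 4 had a Siglech UMI. All 11 had Ebf1, at 4650 CPM, and 7 had Vpreb3, while Lef1 was at 107 CPM over the 11 cells.

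The genes that took most UMIs of pro-B cells outside ribosomal and mitochondrial genes were Malat1, Ebf1, Gm42418, Tpt1, Tmsb4x, Bach2, Lef1, Vpreb3, Ptma and S100a8. Gm42418, which overlaps ribosomal RNA sequence and is uncertain for that reason, ranged from 1298 to 6897 CPM between libraries. Ebf1 ranged from 11918 to 15966 CPM and was counted in all 455 members.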

How the data were processed

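The data are single-cell RNA counts of CD45-positive cells of digested joints from 6 samples, 2 given PBS and 4 given PEPITEM, made with 3′ chemistry. The authors deposited whole UMI counts of 20394 genes in 32953 cells, aligned to mm10 with Cell Ranger, with ambient RNA corrected, doublets removed and cells filtered by gene number and mitochondrial share. No doublet caller was rerun. Cells were taken as deposited, and 1724738 stored zeros were read as 0.

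Members were selected by the rule given above. The members and the gene lists were chosen with earlier results of these data known. UMIs were summed per class and library and scaled to CPM, with 1 CPM added for ratios. Genes at 10 CPM or more in the higher class were read, and genes used by either class's rule were left out. Pooled CPM have exact Poisson intervals, shares Wilson intervals, and zero counts a floor of 3 counts, all for counting error only. The 10 genes named per comparison and direction had the largest ratios among called genes at 50 CPM or more, without immunoglobulin variable segments. Shares of cells were recomputed after drawing 3000 UMIs per cell, which left out 7 of 455 members, 43 of 1243 small pre-B cells and 1 of 349 cycling cells. The comparison was also run on simulated counts with known changes and counting error only. That run could not show calls that rest on a few cells or on spread between libraries.

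The alternatives were other thresholds, a higher expression minimum, a pseudocount of 10 CPM, means over cells, thinning, leaving out cells with 5 or more myeloid UMIs, and leaving out each library. Python 3.11.15, numpy 2.4.6, scipy 1.17.1, pandas and matplotlib were used. Promoters are RefSeq entries and transcripts GENCODE entries of GRCm38. PBS and PEPITEM were not compared.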

Additional observations from a re-analysis of the deposited data

How the results depend on the processing

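The share of pro-B cells was 1.38%, moved to 1.25% when neither Mki67 nor Top2a was allowed, and was 0.984% as the median of the 6 libraries. Leaving out each library gave 1.09% (without library 2) to 1.50%. With a sum of at least 2 or at least 5, Cd79a of at least 1, myeloid cells left out or cells thinned, it stayed inside its interval, at 1.29 to 1.44%. Thinning kept 388 members among the 435 cells then selected.

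At a minimum of 50 CPM fewer genes could be called: 322 in place of 685 higher than in small pre-B cells, 690 in place of 1419 higher and 580 in place of 1005 lower than in cycling cells, and 448 in place of 891 higher and 364 in place of 638 lower than in Ms4a1 B cells. A pseudocount of 10 CPM left 827 genes higher than in cycling cells. The other counts, those without each library included, stayed within 1.5 times. Of 510 recomputed levels of 51 genes, 358 stayed within their counting interval. Among these 51 genes only S100a8, S100a9, Lyz2 and Apoe moved by over 1.5 times. Other genes named above were not among the 51 and can move as far. Iglc2 was at 20.1 CPM in the pooled pro-B cells and 10.2 CPM in their median library. Thinning moved the share of cells with a UMI outside its interval for 46 of 51 genes.

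Libraries of 20 to 35 members (1, 3 and 4) limit how far a low gene can be read in each. No paired analysis was possible because no barcode number is linked to a sample.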

Other observations

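Immunoglobulin variable segments, summed by chain, were looked at after the other values had been seen. Reads of a 3′ library rarely reach these segments, so a cell without such a UMI can still carry a joined chain. Heavy chain variable segments (74 genes) were at 59.1 CPM in pro-B cells (51.6 to 67.4), with 6.26, 56.9 and 119.99 CPM in the lowest, median and highest libraries, against 21.4 CPM in small pre-B and 32.9 CPM in Ms4a1 B cells. Libraries ran from 8.70 to 30.3 CPM in small pre-B and from 19.7 to 64.9 CPM in Ms4a1 B cells, so both ranges overlapped that of pro-B cells. A UMI of these heavy chain segments was counted in 27.7% of pro-B cells (14.3% after thinning to 3000 UMIs), 10.7% of small pre-B cells (7.58% thinned) and 0.162% of the Cd3 cells (0% thinned), at median depths of 6897, 5067 and 10091 UMIs. Heavy chain joining segments (4 genes) had the other order, at 1.87 CPM (0.753 to 3.86) in pro-B, 7.72 CPM (5.83 to 10.02) in small pre-B and 5.70 CPM in Ms4a1 B cells. Kappa variable segments (68 genes) also had it, with 42.3 CPM in pro-B and 198 CPM in small pre-B cells, where the lowest library had 115 CPM and the highest library of pro-B cells 65.8 CPM.

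Within pro-B cells the variable segments of the heavy and kappa chains had opposite orders with and without Dntt, with 7 UMIs of heavy chain variable segments in the part without it. Heavy chain variable segments were at 64.7 CPM (56.4 to 74.0) with Dntt and at 16.1 CPM (6.48 to 33.2) without it, and kappa variable segments at 31.8 CPM (26.0 to 38.5) and 122 CPM (91.5 to 159.7). The heavy chain constant gene Ighm had the order of kappa, at 1334 CPM with and 2590 CPM without Dntt, and heavy chain joining segments were at 1.82 CPM (0.666 to 3.95) and 2.30 CPM (0.0583 to 12.8). After thinning, a kappa variable UMI was counted in 7.59% of members with Dntt, 27.3% of those without and 38.9% of small pre-B cells.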
